A study of Mus musculus with 4 samples.

Results

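The replication-dependent histone genes were taken as every gene whose symbol in the deposited count table names a linker histone H1f1 to H1f6 or a clustered H2ac, H2bc, H3c or H4c gene. This symbol rule, which used no measured value, found 64 of 22417 genes: 6 of H1, 17 of H2A, 17 of H2B, 12 of H3 and 12 of H4. The counts came from ribosome profiling of mouse bone-marrow-derived monocytes, in which the stretches of mRNA covered by ribosomes are sequenced. The libraries were 2 labelled Nat10 conditional knockout (cKO) and 2 labelled WT, and all 4 came from cells held for 3 days in RANKL, the cytokine that drives monocytes to become bone-resorbing osteoclasts. Nat10 encodes the enzyme that acetylates cytidine in RNA, and the study asked what its loss does during osteoclast formation. The Cre driver, the deleted exon, the sex and age of the mice and whether replicates came from separate mice or cultures were not stated in the labels, so p-values cover only how these 4 libraries vary, and that variation may be technical.

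Replication-dependent histones package newly made DNA. H2A, H2B, H3 and H4 form the core around which DNA is wrapped, and H1 binds the linker DNA between cores. Their genes lie in clusters, are transcribed mostly in S phase and give mRNAs that end in a conserved stem-loop in place of a poly(A) tail. The stem-loop is bound by SLBP, which acts in the processing and translation of these mRNAs, and the mRNAs are degraded when DNA synthesis stops. Most genes of one core class (H2A, H2B, H3 or H4) encode identical or nearly identical proteins and have similar coding sequences. How reads that match several genes were counted is not stated in the sources used here, so each single-gene count is uncertain. For these core classes the sum of a class is the less ambiguous measure. In these bulk libraries, fewer cells in S phase and less histone mRNA or translation per cell cannot be told apart, and no matched RNA-seq was used.

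The genes lie in 3 stretches of the genome (GRCm39). A stretch of chromosome 13 from 21899933 to 22227846 holds 23 of them, another from 23715220 to 24118834 holds 31, and a stretch of chromosome 3 from 96127181 to 96177448 holds 10. To show what a promoter of each class looks like, the 140 bases before the transcription start are given, from RefSeq on GRCm38. They are written 5′ to 3′ on the gene's own strand, for the member with the highest mean CPM of its class. Per RefSeq gene length H2ac11 and H2ac13 stood above H2ac7, but the order per coding length was not computed. Capitals mark the TATA box (TATAAA), the CCAAT box (CCAAT, or ATTGG on the other strand) and the octamer (ATTTGCAT).
H1f3, chr13:23554892-23555031, plus strand: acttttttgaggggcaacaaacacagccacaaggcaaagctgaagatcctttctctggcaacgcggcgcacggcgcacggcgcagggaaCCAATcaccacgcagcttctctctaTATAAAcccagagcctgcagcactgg
H2ac7, chr13:23574241-23574380, plus strand: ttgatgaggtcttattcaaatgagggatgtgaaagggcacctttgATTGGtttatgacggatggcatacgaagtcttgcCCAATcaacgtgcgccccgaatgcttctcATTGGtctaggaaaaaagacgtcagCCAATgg
H2bc18, chr3:96269560-96269699, plus strand: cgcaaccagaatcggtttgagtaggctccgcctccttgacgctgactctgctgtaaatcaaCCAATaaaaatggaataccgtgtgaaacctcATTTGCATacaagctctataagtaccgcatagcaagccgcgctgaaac
H3c11, chr13:21783398-21783537, minus strand: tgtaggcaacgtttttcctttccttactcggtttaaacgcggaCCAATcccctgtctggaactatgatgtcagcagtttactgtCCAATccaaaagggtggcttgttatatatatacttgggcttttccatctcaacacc
H4c4, chr13:23581428-23581567, plus strand: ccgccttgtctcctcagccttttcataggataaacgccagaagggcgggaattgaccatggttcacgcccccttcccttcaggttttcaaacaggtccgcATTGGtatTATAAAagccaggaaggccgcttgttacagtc

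The 5 sequences differ in which of these letters they carry. The H2bc18 stretch has a CCAAT box 79 bases and an octamer 48 bases before the start, the octamer being the element bound by OCT1 in H2B promoters. The H1f3 stretch has a TATA box 26 bases before the start and a CCAAT box 51 bases before it, and in H4c4 the TATA box lies 32 bases before the start. Promoters were found for 59 of the 64 genes. Searched on both strands from 250 bases before to 50 bases after the start, the octamer was in 7 of 15 H2B and 6 of 17 H2A promoters and in 0 of 6 H1, 0 of 10 H3 and 0 of 11 H4 promoters. This made 22.0% of the histone promoters, against 1.74% of all 32851 mouse promoters in the table. Many H2A and H2B genes lie on opposite strands with starts 175 to 305 bases apart, so the same octamer can be counted for both. Both partners were counted for H2ac1 and H2bc1, H2ac8 and H2bc8, and H2ac12 and H2bc12. The H2ac20 octamer lay 200 bases before its start on the other strand, with H2bc21 238 bases away. The H2A count is therefore not a count of octamers belonging to H2A genes. The CCAAT box was in 100% of the H1, H2A, H2B and H3 promoters but in 3 of 11 H4 promoters, 86.4% over all histone genes against 37.4% of all promoters. The TATA box letters were in 57.6% of histone promoters and 13.6% of all promoters. They were counted anywhere in the window, as in H3c11, where they began 147 bases before the start. Histone shares count genes, and the shares of all promoters count promoter entries. These matches are letters in a window and are not evidence of binding.

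Library totals were 1467611 for cKO replicate 1, 1481083 for cKO replicate 2, 906937 for WT replicate 1 and 3014620 for WT replicate 2. WT replicate 2 stood apart, with the largest total but only 9402 genes detected, where the other 3 libraries detected 10508 to 10798. In it, 362 of 7794 genes with at least 20 expected counts had none, against 1 to 45 genes in the others. Over all genes the correlation of log2 levels was 0.923 within the cKO pair and 0.797 within the WT pair. Nat10 itself had 101 and 72 counts in cKO, against 77 and 148 in WT, a log2 fold change of -0.18 (SE 0.41, edgeR adjusted p = 0.907). The groups overlapped, so the counts over the whole gene do not check the labels, and every direction here is between libraries labelled cKO and libraries labelled WT.

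Markers of the labelled cell type were present, 16 of 16 monocyte, macrophage and osteoclast markers having counts. Their summed level was 48051 and 42774 CPM in cKO, against 66016 and 82325 CPM in WT (CPM, counts scaled to a common library total), and Csf1r, Lyz2 and Mmp9 fell by the edgeR test. Markers of stromal cells and osteoblasts, which a bone marrow culture can hold, were also present for 12 of 14. They summed to 620 and 602 CPM in cKO, against 4505 and 5807 CPM in WT, and of 9 tested Col1a1, Col1a2, Col3a1, Sparc, Bgn and Postn fell. Over all genes tested, 0.754% were called lower. The receptor gene Pdgfrb (log2 1.87) and the transcription factor gene Runx2 (log2 2.53) did not pass but had both cKO libraries above both WT libraries, as had Mrc1 (log2 1.25) and Calcr (log2 2.50) among the monocyte, macrophage and osteoclast markers. These 4 genes were named after their values were seen, and 22.7% of all genes tested had both cKO libraries above both WT libraries. Neutrophil and progenitor markers, led by S100a8 and S100a9, summed to 839 and 785 CPM in cKO, against 1333 and 1523 CPM in WT. Of 4 tested, 0 passed the edgeR threshold and 3 were lower at an unadjusted p under 0.05, when 6.5% of all genes were. Of the T and NK cell markers 6 of 7 were at 0 in all libraries, of the B cell markers 3 of 5 (the others, Cd79b with 41 counts and Pax5 with 14, had counts in WT replicate 2 only), and of the erythroid and megakaryocyte markers 8 of 10. The part of these cell markers in the histone results was not tested.

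Scaled to library totals, ribosome footprints on histone mRNAs were fewer in the cKO libraries for every class when the counts of its genes were summed. All 64 genes together had 405 and 380 counts in cKO, against 467 and 2067 in WT, or 278 and 256 CPM in cKO, against 515 and 709 CPM in WT. Both cKO libraries lay below both WT libraries, and the cKO pair differed by less than the WT pair. The cKO mean was 267 ± 15.3 CPM and the WT mean 612 ± 137 CPM (SD, n = 2 each), 2.29 times higher in WT, a log2 ratio of -1.20. Histone counts were 0.0276% (95% exact binomial interval 0.0250 to 0.0304%) and 0.0257% (0.0231 to 0.0284%) of the totals in cKO, against 0.0515% (0.0469 to 0.0564%) and 0.0686% (0.0656 to 0.0716%) in WT. These intervals cover counting error only, and no p-value was given for sums.

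The H3 genes differed most in ratio and had the fewest counts. Their sum was 4 and 16 counts in cKO, against 43 and 92 in WT, or 2.74 and 10.8 CPM in cKO, against 47.4 and 31.6 CPM in WT. The group means were 5.84 times apart without overlap, although cKO replicate 1 was itself at 0.254 of the level of cKO replicate 2. The H2B sum was 40.5 and 37.7 CPM in cKO, against 83.8 and 152 CPM in WT, 3.02 times higher in WT. The cKO pair was close and the WT pair was not, and without WT replicate 2 the log2 ratio was -1.10 in place of -1.59. The linker histone H1 sum was 51.4 and 45.2 CPM in cKO, against 104 and 133 CPM in WT, 2.45 times higher in WT, and libraries of a group differed less than the groups did.

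The H4 sum, the largest in every library, was 117 and 131 CPM in cKO, against 196 and 288 CPM in WT, 1.95 times higher in WT. The H2A sum was 65.8 and 31.7 CPM in cKO, against 83.8 and 104 CPM in WT, 1.93 times higher in WT. Here cKO replicate 1 lay close to WT replicate 1, so the groups did not overlap but the gap was small. The log2 ratio of the H2A sum, -0.94 with all libraries, was -1.57 without cKO replicate 1 and -0.51 without cKO replicate 2. For H3 it was -2.55 with all libraries, -1.87 without cKO replicate 1 and -3.85 without cKO replicate 2.

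**Figure D1:**
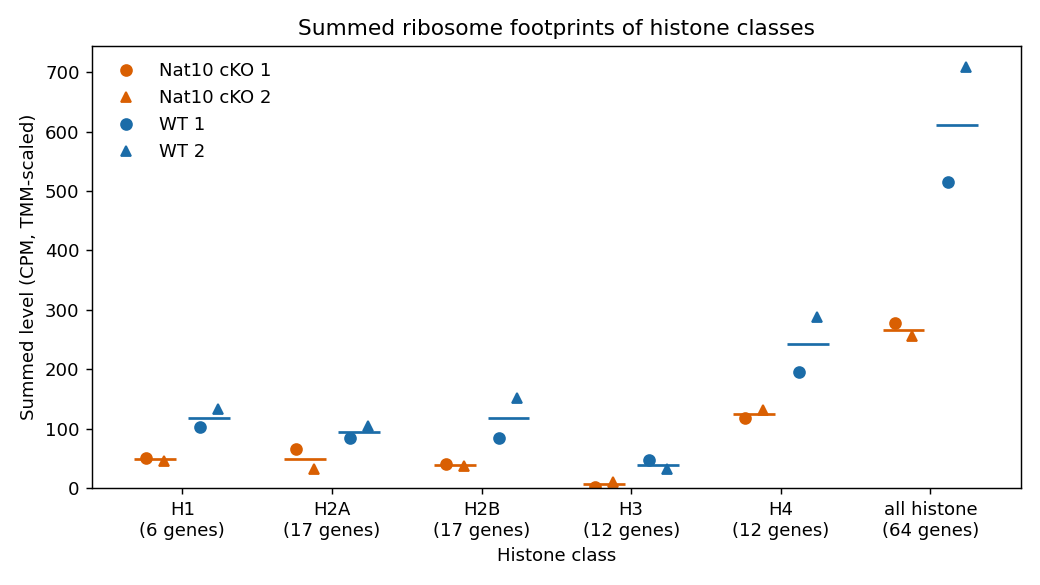
Summed level of each histone class (CPM, counts scaled to a common library total), with 1 point per library, the cKO libraries left of the WT libraries, and bars at the group means. In every class both cKO points lie below both WT points, and H2A has the smallest gap between the groups.

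The share of histone counts given by each class was compared between libraries, beginning with H4, the largest. H4 gave 42.2% (37.4 to 47.2%) and 51.1% (45.9 to 56.2%) of histone counts in cKO, against 38.1% (33.7 to 42.7%) and 40.6% (38.5 to 42.8%) in WT. H1 gave 18.5% (14.9 to 22.7%) and 17.6% (13.9 to 21.8%) in cKO, against 20.1% (16.6 to 24.1%) and 18.8% (17.1 to 20.5%) in WT, and these intervals overlap in all 4 libraries. H3 gave 0.988% (0.270 to 2.51%) and 4.21% (2.43 to 6.75%) in cKO, against 9.21% (6.74 to 12.2%) and 4.45% (3.60 to 5.43%) in WT. The H3 share of cKO replicate 2 was thus near that of WT replicate 2, and the extremes were the other library of each group. For H2A, cKO replicate 1 was the high library at 23.7% (19.6 to 28.2%), with 12.4% (9.23 to 16.1%) in cKO replicate 2, against 16.3% (13.04 to 19.9%) and 14.7% (13.2 to 16.3%) in WT. H2B gave 14.6% (11.3 to 18.4%) and 14.7% (11.3 to 18.7%) in cKO, against 16.3% (13.04 to 19.9%) and 21.5% (19.7 to 23.3%) in WT.

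**Figure D2:**
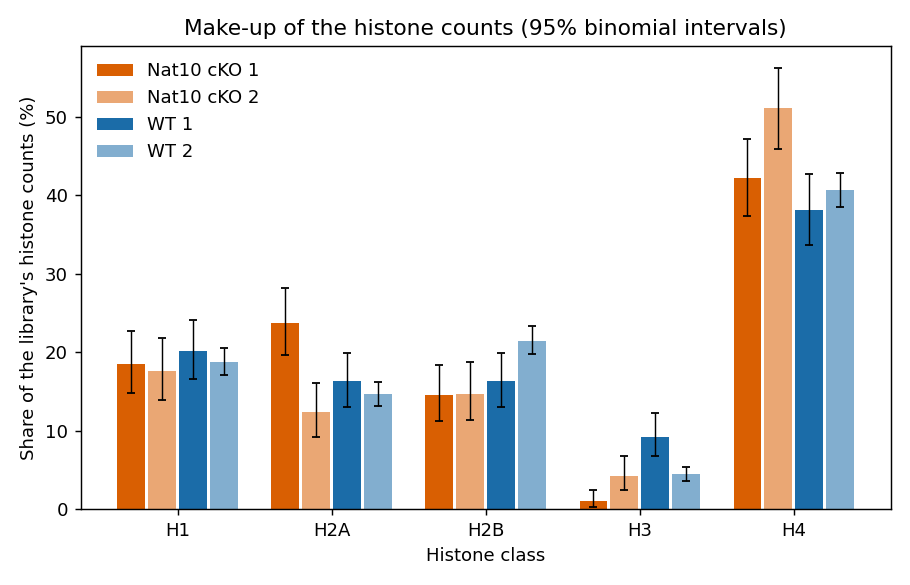
Share of all histone counts given by each class (percent), by library, with 95% exact binomial intervals. H4 gives the largest share in all 4 libraries, and the H3 share runs between 0.988% and 9.21%.

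By position, the chromosome 3 stretch summed to 32.9 and 52.6 CPM in cKO, against 105 and 191 CPM in WT. The chromosome 13 stretch that starts at 21899933 summed to 54.9 and 49.9 CPM in cKO, against 108 and 150 CPM in WT, and the one that starts at 23715220 to 190 and 154 CPM in cKO, against 302 and 368 CPM in WT. In each stretch both cKO libraries were below both WT libraries.

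Single genes were tested with edgeR's quasi-likelihood test over all 7953 genes with enough counts, at a Benjamini-Hochberg adjusted p under 0.05. Of the 64 histone genes, 46 had a count and 19 could be tested: 5 of H1, 4 of H2A, 2 of H2B, 2 of H3 and 6 of H4. None of the 19 passed in either direction, when 0.754% of all genes tested were called lower and 0.641% higher. At an unadjusted p under 0.05, 4 histone genes were lower (H2bc18, H1f3, H3c11 and H4c14) and 0 higher, when 6.5% and 5.63% of all genes were. Without a filter on low counts, edgeR called 3 of 46 lower: H2bc18 (adjusted p = 0.00301), H4c14 (0.0191) and H1f3 (0.0241). The same fit called 1.44% of all genes lower and 1.48% higher, with 0 histone genes higher. DESeq2 and limma-voom each called H2bc18 lower and no other histone gene, although DESeq2 gave no adjusted p for 17 of the 19.

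The direction was lower in cKO for 18 of the 19 tested genes, against 50.5% of all genes tested, and H1f4 was the exception. The median log2 fold change of the 19 was -1.45, and that of all genes was -0.01. Both cKO libraries were below both WT libraries for 11 of the 19 genes and above both for 0, when 22.6% and 22.7% of all genes tested showed these patterns. Among the 46 genes with any count the shares were 32.6% below and 6.52% above, against 17.6% and 19.4% of all genes with a count. Those above both WT libraries were H2ac20, H2ac22 and H2bc8, named after their values were seen, with at most 10 counts in a cKO library. A gene could pass the filter through the WT libraries alone, so the 19 do not stand for all 64 genes, and without the filter 30 of the 46 had a negative log2 fold change, against 49.3% of all genes with a count.

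**Figure D3:**
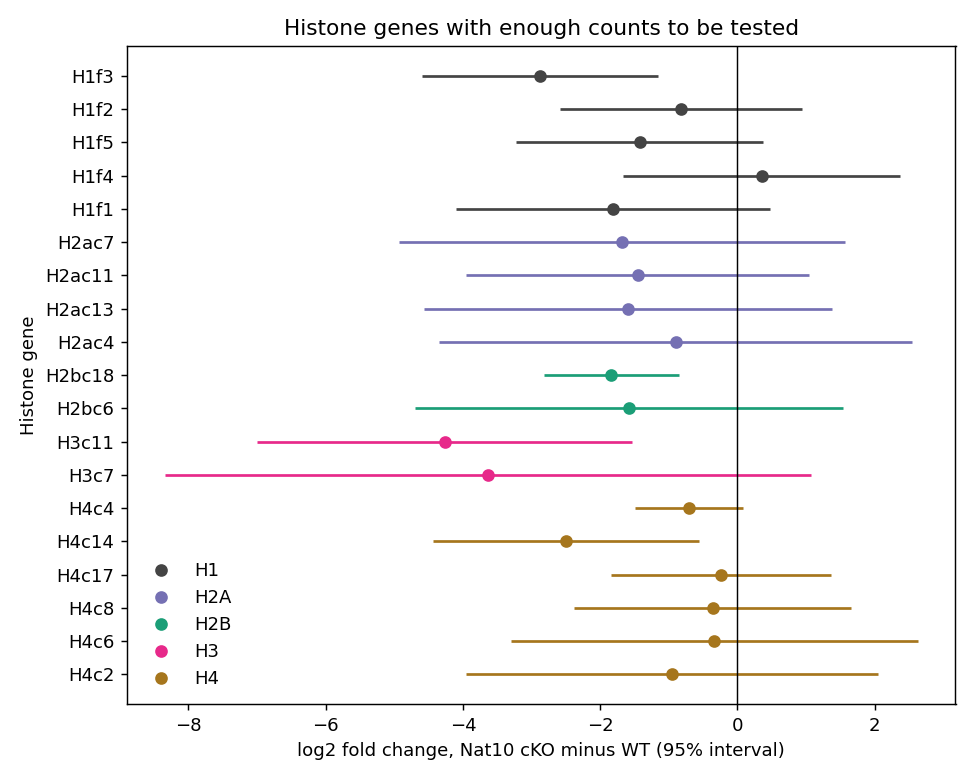
Log2 fold change (cKO minus WT, edgeR) of the 19 tested histone genes, grouped by class, with 95% intervals. Of the 19 points, 18 lie below 0, and the intervals of H1f3, H2bc18, H3c11 and H4c14 lie wholly below 0 before adjustment over all genes.

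Of the linker histones, H1f3 (ENSMUSG00000052565, chromosome 13, 23737436 to 23744860, plus strand, GRCm39) differed most. It had 4 and 12 counts in cKO, against 29 and 140 in WT, or 2.74 and 8.09 CPM in cKO, against 31.98 and 48.0 CPM in WT. Both cKO libraries were well below both WT libraries. The log2 fold change was -2.88 (SE 0.76, 95% interval -4.60 to -1.15), but the edgeR adjusted p was 0.142. It was -2.28 without cKO replicate 1 and -3.82 without cKO replicate 2. H1f3 made up 5.33% (1.47 to 13.1%) and 17.9% (9.61 to 29.2%) of H1 counts in cKO, against 30.9% (21.7 to 41.2%) and 36.1% (31.3 to 41.1%) in WT, and the H1 sum without it had a log2 ratio of -0.87.

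H1f5 had 9.60 and 7.41 CPM in cKO, against 19.9 and 25.7 CPM in WT (log2 -1.42, SE 0.79), without overlap. H1f1 had 8.23 and 2.70 CPM in cKO, against 21.0 and 17.8 CPM in WT (log2 -1.81, SE 1.002), again without overlap. H1f2 had 20.6 and 7.41 CPM in cKO, against 17.6 and 31.2 CPM in WT (log2 -0.82, SE 0.78), and its groups overlapped because cKO replicate 1 was above WT replicate 1. H1f4 had 10.3 and 19.5 CPM in cKO, against 13.2 and 10.3 CPM in WT, with overlap (log2 0.35, SE 0.89), and its sign turned without cKO replicate 2 (log2 -0.17). H1f6, the testis linker histone gene, was at 0 in all libraries.

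The H2A genes varied widely between libraries of the same group. H2ac7, the member with the highest mean CPM (not per length), had 16 and 0 counts in cKO, against 16 and 52 in WT, or 10.97 and 0 CPM in cKO, against 17.6 and 17.8 CPM in WT. The WT libraries were alike and cKO replicate 2 had no count where 23.1 were expected from the others (log2 -1.68, SE 1.43, edgeR adjusted p = 0.696). H2ac11 had 8.92 and 3.37 CPM in cKO, against 6.62 and 26.4 CPM in WT, and H2ac13 had 8.92 and 1.35 CPM in cKO, against 4.41 and 26.1 CPM in WT. In both, WT replicate 2 was the high library and WT replicate 1 lay between the cKO libraries, and for H2ac13 the log2 fold change turned to 0.22 without WT replicate 2. H2ac4 had 10.3 and 1.35 CPM in cKO, against 18.7 and 3.77 CPM in WT, with replicate 1 high in both groups.

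Of the other 13 H2A genes, 8 had a count and none could be tested. H2ac12 had 3 and 4 counts in cKO, against 5 and 60 in WT, lower in cKO without overlap. H2ac8 had 4 and 10 counts in cKO, against 13 and 0 in WT, where 21.1 were expected in WT replicate 2. H2ac1, which is expressed in testis, H2ac18, H2ac19, H2ac23 and H2ac24 were at 0 in all 4 libraries.

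H2bc18 (ENSMUSG00000105827, chromosome 3, 96177068 to 96177448, plus strand, GRCm39) carried most of the H2B counts. It had 36 and 42 counts in cKO, against 59 and 357 in WT, or 24.7 and 28.3 CPM in cKO, against 65.1 and 122 CPM in WT. The cKO libraries were close to each other and below both WT libraries. The log2 fold change was -1.84 (SE 0.43, 95% interval -2.82 to -0.86), 3.57 times higher in WT, and the edgeR adjusted p of 0.102 was the smallest of the histone genes. H2bc18 gave 61.0% (47.4 to 73.5%) and 75% (61.6 to 85.6%) of H2B counts in cKO and 77.6% (66.6 to 86.4%) and 80.4% (76.4 to 84.0%) in WT, and the H2B sum without it had a log2 ratio of -0.95. H2bc6, the other tested H2B gene, had 5.49 and 2.02 CPM in cKO, against 8.82 and 13.7 CPM in WT, without overlap (log2 -1.58, SE 1.37). Its deposited span on chromosome 13, from 23767653 to 23805107, runs into that of H1f4.

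The other H2B genes were near the limit of detection. H2bc15 had 1.37 and 0.674 CPM in cKO, against 0 and 13.4 CPM in WT, so most of its counts were in WT replicate 2. H2bc4 had 0 and 1.35 CPM in cKO, against 5.51 and 2.40 CPM in WT, without overlap but from 14 counts in all. H2bc8, with 5 and 6 counts in cKO, against 0 and 1 in WT, ran the other way. H2bc1, H2bc3, H2bc9, H2bc12, H2bc13, H2bc14, H2bc22, H2bc23 and H2bc24 were at 0 in all libraries.

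H2A and H2B genes often lie head to head, sharing the DNA between their starts. In 12 such pairs, 175 to 305 bases apart, the H2A partner had more counts in 8, the H2B partner in 1, and both were at 0 in 3. Over these pairs the H2A genes summed to 467 counts and the H2B genes to 82. H2ac13 had 95 counts over the 4 libraries and its partner H2bc13 had 0, and H2ac7 had 84 and H2bc7 had 4. The exception was H2bc15 with 42 counts, against 10 for H2ac15, and it rests on WT replicate 2, which held 39 of the 42. In each of the other 3 libraries H2ac15 had more counts than H2bc15. Since it is not known how reads shared by several genes of a class were counted, the split of counts within a pair is uncertain.

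H3c11 (ENSMUSG00000101972; GRCm39 chromosome 13, 21967130 to 21967540, minus strand) held the largest part of the H3 counts in WT. It had 1 and 2 counts in cKO, against 19 and 61 in WT, or 0.686 and 1.35 CPM in cKO, against 21.0 and 20.9 CPM in WT. The WT libraries agreed closely and both cKO libraries were near 0. The ratio of summed counts, scaled to the totals, put H3c11 20.5 times higher in WT, with a 95% counting interval from 6.77 to 102. That interval leaves out variation between libraries. The edgeR fit, which includes it, gave a log2 fold change of -4.27 (SE 1.20, 95% interval -6.99 to -1.54) with an adjusted p of 0.173.

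H3c7 had 0 and 2 counts in cKO, against 7 and 31 in WT, or 0 and 1.35 CPM in cKO, against 7.72 and 10.6 CPM in WT. By summed counts its level in WT was 14.6 times higher, without overlap (95% counting interval 3.78 to 125, again without variation between libraries). The edgeR fit gave a log2 fold change of -3.63 (SE 2.07, 95% interval -8.34 to 1.08, adjusted p = 0.531), an interval that includes 0. H3c10 had 0 and 0.674 CPM in cKO, against 8.82 and 0 CPM in WT, its counts coming almost wholly from WT replicate 1. H3c1 had 0 and 4.04 CPM in cKO, against 4.41 and 0 CPM in WT, with overlap. H3c13, H3c14 and H3c15, the chromosome 3 copies, were at 0 throughout. By the protein encoded, the H3.1 genes (H3c1, H3c8, H3c10 and H3c11) summed to 0.686 and 6.07 CPM in cKO, against 35.3 and 20.9 CPM in WT, and the H3.2 genes to 2.06 and 4.72 CPM in cKO, against 12.1 and 10.6 CPM in WT. Neither sum overlapped between the groups.

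H4c4 (ENSMUSG00000061482, chromosome 13, 23765581 to 23766718, plus strand, GRCm39) had the most counts of all histone genes, 98 and 90 in cKO and 72 and 371 in WT. These are 67.2 and 60.7 CPM in cKO, against 79.4 and 127 CPM in WT. Both cKO libraries were below both WT libraries, but WT replicate 1 was nearer to the cKO pair than to WT replicate 2. The log2 fold change was -0.71 (SE 0.34, edgeR adjusted p = 0.460), and H4c4 gave 57.3% (49.5 to 64.8%) and 46.4% (39.2 to 53.7%) of H4 counts in cKO and 40.4% (33.2 to 48.0%) and 44.2% (40.8 to 47.6%) in WT.

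H4c14 (ENSMUSG00000091405; GRCm39 chromosome 3, 96168998 to 96170627, minus strand) had 3 and 22 counts in cKO, against 28 and 187 in WT, or 2.06 and 14.8 CPM in cKO, against 30.9 and 64.1 CPM in WT. The groups did not overlap, although each pair was wide (log2 -2.50, SE 0.85, edgeR adjusted p = 0.265). The log2 fold change of H4c14 was -1.66 without cKO replicate 1, -4.47 without cKO replicate 2 and -1.84 without WT replicate 2. H4c17 had 13.7 and 29.0 CPM in cKO, against 35.3 and 16.1 CPM in WT, with overlap (log2 -0.24, SE 0.70). H4c3, which could not be tested, had 2.06 and 4.04 CPM in cKO, against 6.62 and 44.9 CPM in WT, lower in cKO without overlap but with WT replicate 2 far above the rest. H4c2 was lower without overlap, at 4.12 and 6.07 CPM in cKO, against 8.82 and 10.97 CPM in WT (log2 -0.96, SE 1.32), while H4c8 (log2 -0.36) and H4c6 (log2 -0.34) overlapped. All 12 H4 genes had a count, and H4c1, H4c9, H4c11, H4c12 and H4c18 had at most 5 counts each over the 4 libraries.

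**Figure D4:**
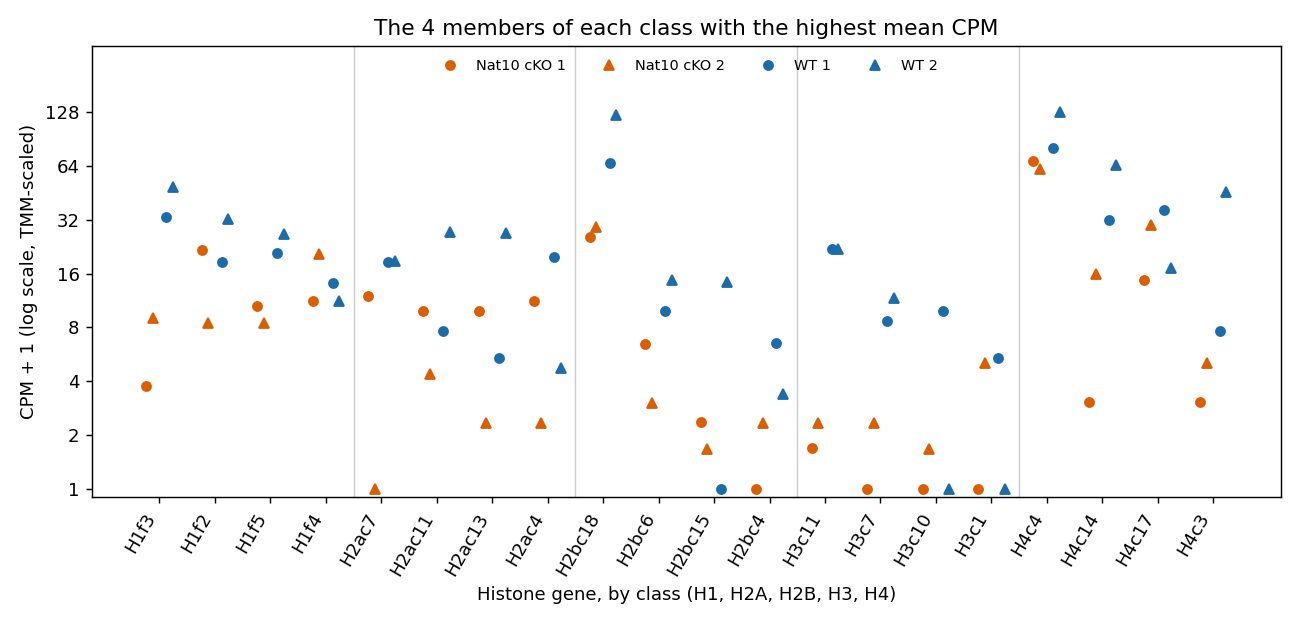
Level of the leading histone genes of each class in every library (CPM), with the cKO libraries left of the WT libraries. For H1f3, H2bc18, H3c11 and H4c14 both cKO points lie below both WT points, and for H1f4 and H4c17 the groups overlap.

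Levels can be compared between genes only per length, here as CPM per kilobase of the RefSeq gene length. Genes of a kilobase or more were left out. Coding lengths were not used, so the order of genes with close values may depend on the annotated gene length. On that scale H4c4 led, at 167 and 151 in cKO and 198 and 317 in WT, followed on average by H2bc18 at 50.1 and 57.4 in cKO and 132 and 248 in WT. H4c14 stood at 5.36 and 38.6 in cKO and 80.4 and 167 in WT, and H4c17 at 33.9 and 71.6 in cKO and 87.1 and 39.8 in WT. H4c4 was the highest per length in every library among the 58 histone genes with a usable length, and the order of H2bc18, H4c14 and H4c17 below it differed between libraries.

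In all, 18 of the 64 genes were at 0 in every library. A count of 0 over the 6870251 counts of the 4 libraries allows a level of up to 0.437 CPM (3 counts). But since most of these genes have close copies, reads from them may have been counted elsewhere or not at all. Members with a count numbered 35 and 37 in cKO and 37 and 28 in WT, and 32 and 33.6 in cKO against 37 and 25.8 in WT after thinning to the smallest total. In WT replicate 2, 5 histone genes with at least 5 expected counts were at 0, against 1 in each other library.

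Of 42 DNA replication genes, 32 were tested, 1 fell, 0 rose and 29 had a negative log2 fold change, with a median of -0.69. Over all genes tested, 0.754% fell and 50.5% had a negative log2 fold change, with a median of -0.01. The gene that fell was Rrm2, which encodes the small subunit of ribonucleotide reductase and is used in S phase. It had 15.8 and 8.09 CPM in cKO, against 62.9 and 87.1 CPM in WT (log2 -2.65, SE 0.51, edgeR adjusted p = 0.0497), without overlap. The list summed to 684 and 797 CPM in cKO, against 1392 and 1294 CPM in WT. Of 20 mitosis genes, 13 were tested, 1 fell and 0 rose, all 13 had a negative log2 fold change, and the median was -1.66. Top2a, a DNA topoisomerase gene of dividing cells, was the gene that fell, with 41.8 and 27.0 CPM in cKO, against 141 and 129 CPM in WT (log2 -1.97, SE 0.35, edgeR adjusted p = 0.0324). A gene of these lists could pass the count filter through the WT libraries alone, so the tested genes do not stand for the whole lists. Aurkb did so, with 2 and 1 counts in cKO, against 19 and 44 in WT. Mitosis genes that were not tested ran both ways. Plk1 had a mean of 3.75 CPM in cKO and 1.10 in WT, and Ccnb1 0.343 in cKO and 16.5 in WT. These single genes were named after their values were seen. Both lists were chosen with earlier results of the same libraries known and lend the histone sums no independent support.

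Of 17 tested genes of histone mRNA transcription and 3′ end processing, 0 passed the edgeR test and 0 had an unadjusted p under 0.05, and the median log2 fold change was 0.07. Over all genes tested, edgeR called 0.754% lower and 0.641% higher, and 6.5% and 5.63% at an unadjusted p under 0.05. Slbp, the stem-loop binding protein gene, had 57.6 and 63.4 CPM in cKO, against 34.2 and 91.6 CPM in WT (log2 -0.09, SE 0.47, edgeR adjusted p = 0.965), with the WT libraries on either side of the cKO pair. Cpsf2 (log2 0.07) and Cpsf3 (log2 0.21), which encode subunits of the cleavage complex, also did not pass. The list was not uniform, running from -1.73 (SE 0.89) for Lsm10 to 1.87 (SE 0.97) for Casp8ap2. Lsm10 and Casp8ap2 were named after their values were seen. Of 17 tested histone chaperone and acetylation genes 0 passed, with a median of -0.16. At an unadjusted p under 0.05 by edgeR, 1 was lower, when 6.5% of all genes tested were. The most abundant, Supt16 (log2 -0.06) of the FACT complex and Atrx (log2 -0.05), were near 0.

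The list of replication-independent histone variants, many of which are made through the cell cycle from mRNAs with poly(A) tails, could be tested for 3 of 12 genes. Whether this description holds was not checked for each gene, and the list also held H2ax and H2bu2. Of the 3, 0 passed by edgeR, also at an unadjusted p under 0.05 (median -0.05). Macroh2a1 had 102 and 129 CPM in cKO, against 136 and 105 CPM in WT, with overlap. H3f3b, an H3.3 gene, had 28.1 and 13.5 CPM in cKO, against 14.3 and 27.1 CPM in WT, also with overlap (log2 -0.02, SE 0.71). H2az1 was at 0 in all libraries and H3f3a had 2 counts, both in cKO replicate 1, so most variants could not be set beside the clustered genes.

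**Figure D5:**
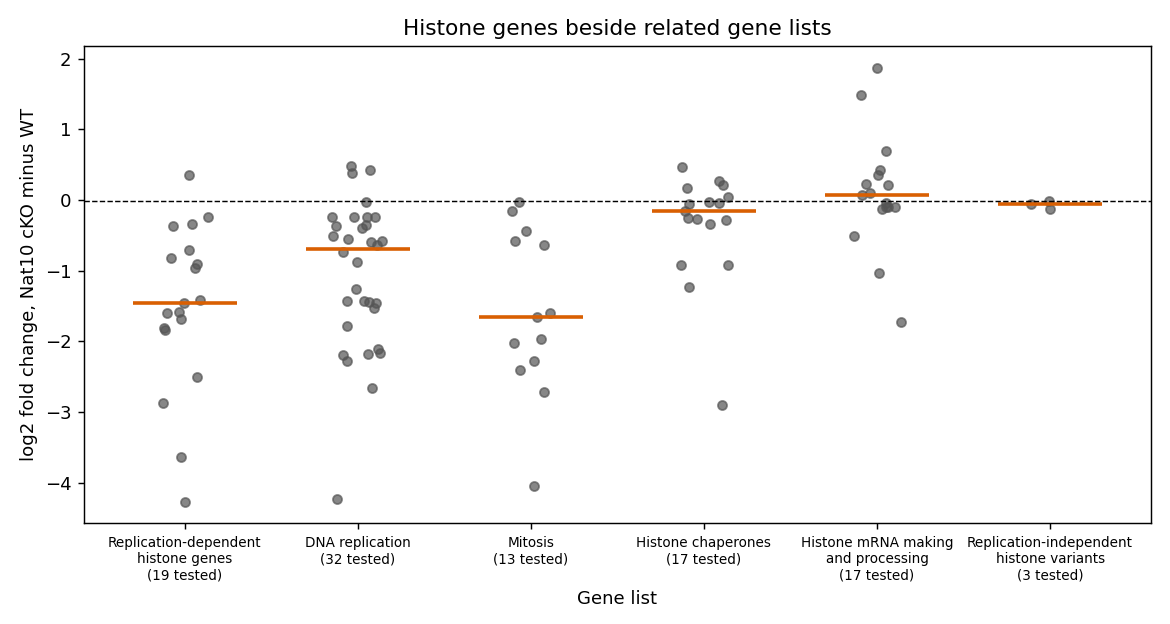
Log2 fold change (cKO minus WT, edgeR) of the tested genes in each list, 1 point per gene, with the median of each list marked. The histone, DNA replication and mitosis lists have medians below 0 (-1.45, -0.69 and -1.66), and the processing, chaperone and variant lists have medians of 0.07, -0.16 and -0.05. A gene could pass the count filter through the WT libraries alone, so the points do not stand for the whole lists.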

How the data were processed

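Ribosome footprints were counted in 2 cKO and 2 WT libraries. The authors deposited raw counts per gene as whole numbers in 1 table, with GRCm39 coordinates, per the file headers. Tools named in the submitters' processing notes are fastp, Bowtie, STAR and HTSeq, and the labels' protocols describe a cycloheximide wash, rRNA depletion and a small-RNA library kit. The sources used here do not state versions, strand setting or the handling of duplicates and of reads matching several genes.

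In edgeR 4.0.16 (R 4.3.3), filterByExpr (minimum count 10 and total 15) kept 7953 genes, TMM scaled the libraries and a robust quasi-likelihood fit compared the genotypes. Benjamini-Hochberg adjustment ran over those genes, with a threshold of 0.05. Log2 fold changes are cKO minus WT. Class sums used all members, with CPM on TMM-scaled totals. Intervals of shares are 95% exact binomial (Clopper-Pearson), for counting error only. DESeq2 1.42.0 and limma-voom (limma 3.58.1), other scalings, filters, left-out libraries and the replicate number as a block were alternatives. The fit was tested on simulated data.

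The members and lists were chosen with earlier results of these data known. Values in every library are given for each class's up to 4 members with the highest mean CPM and for genes past the threshold; from other lists, genes past the threshold or else the 2 with the highest mean CPM were named, and always Nat10 and Slbp. Whether same-numbered libraries were paired is not known. The correlation of their deviations was -0.0155, which cannot settle it with 2 libraries per group and WT replicate 2 standing apart. Promoters came from RefSeq (GRCm38.p6), matched by Entrez gene identifier.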

Additional observations from a re-analysis of the deposited data

How the results depend on the processing

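The 5 class sums and the sum of all histone genes were lower in cKO in all 60 recomputed values. Both cKO libraries lay below both WT libraries in every sum, so leaving out a library or blocking by replicate number could not change this direction. Those values show only how the size of the ratio moved. Without the member with the most counts, the log2 ratio was -0.87 for H1 and -0.95 for H2B, and over only the H3 members that passed the filter it was -4.15. H3c11 and H3c7 passed that filter through their WT counts, so this last value had to be larger and adds no support. Leaving out 1 library at a time gave -1.46 to -1.10 for H1, -1.57 to -0.51 for H2A, -1.96 to -1.10 for H2B, -3.85 to -1.87 for H3, -1.22 to -0.66 for H4 and -1.41 to -0.95 for all histones. Without WT replicate 2 the sum of all histones was at -0.95 and H4 at -0.66.

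The count of histone genes past the threshold was 3 lower without a filter (H1f3, H2bc18 and H4c14), 1 with DESeq2, 1 with limma-voom and 0 to 8 with 1 library left out; the 8, without WT replicate 1, were H1f3, H2ac12, H2ac13, H2bc18, H3c11, H4c14, H4c3 and H4c4. No histone gene was called higher under any alternative run. Of all genes, 51 were higher and 60 lower, against 184 and 179 without a filter, 112 and 107 with DESeq2, 485 and 206 with limma-voom, and 35 to 1354 higher and 38 to 1066 lower with 1 library left out. Without WT replicate 1 the counts were 1354 and 1066, without WT replicate 2 they were 250 and 217, and without cKO replicate 1 they were 35 and 38. These runs tested 8824, 8516 and 8828 genes, in that order, with 23, 20 and 23 histone genes among them. Calls rose over all genes without WT replicate 1, so the histone calls of that run cannot be read alone. With 1 library left out, the lone library was assumed to vary like the other group, and the cause of these shifts was not tested. With the replicate number as a block, 67 genes were higher, 76 lower and 0 histone genes passed, and the log2 ratio of all histones was -1.18.

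Of 221 values for the 19 tested histone genes, 11 turned sign, in 6 genes. With 1 library left out, the log2 fold change of these genes ran from -0.17 to 0.76 for H1f4 (-0.17 without cKO replicate 2), -3.42 to 0.22 for H2ac13 (0.22 without WT replicate 2), -2.96 to 0.64 for H2ac4 (0.64 without WT replicate 1) and -0.87 to 0.44 for H4c17 (0.22 without cKO replicate 1, 0.44 without WT replicate 1). It ran from -0.76 to 0.28 for H4c8 (0.0075 without cKO replicate 2, 0.28 without WT replicate 2) and from -1.13 to 1.14 for H4c6 (0.17 without cKO replicate 2, 1.14 without WT replicate 1). With limma-voom H4c17 was at 0.069 and H4c6 at 0.71. Another 11 passed the threshold where the reported value did not. An added filter on an average CPM of at least 5, chosen after seeing the data, called 0 histone genes. Depth limits the single genes: each library held 380 to 2067 histone counts, and 45 of the 64 genes had too few to be tested.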

Other observations

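Histone genes whose symbols fall outside the rule were named after their values were seen. H4f16 had 4.12 and 7.41 CPM in cKO, against 16.5 and 53.8 CPM in WT, without overlap (log2 -2.62, SE 0.83, edgeR adjusted p = 0.224). H2aw had 43.9 and 22.9 CPM in cKO, against 43.0 and 71.7 CPM in WT, with overlap (log2 -0.80, SE 0.49, edgeR adjusted p = 0.568). H2bu2 had 30 counts in WT replicate 2 and 0 in the other 3 libraries. Among the histone chaperone genes, Chaf1b, a subunit of the chromatin assembly factor that deposits newly made H3 and H4, had 4.12 and 4.72 CPM in cKO, against 27.6 and 39.1 CPM in WT, without overlap (log2 -2.90, SE 0.75, edgeR adjusted p = 0.139).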
